A study of Homo sapiens with 9 samples.

Results

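The 10 genes described here belong to the cellular response to low oxygen: HIF1A, EGLN3, VEGFA, ADM, SLC2A1, PDK1, BNIP3, CA9, NDRG1 and ANKRD37. HIF1A encodes a regulator of that response, and the others are widely used as its readouts. The 10 genes were chosen by name, with earlier results of these data known. They are the lines of the deposited expression table that carry these symbols, and all 10 were among the 19930 genes with values. Expression was given as FPKM, the fragments per kilobase of gene, divided by the library's mapped fragments. A gene was tested when its mean over all libraries was at least 1 FPKM, which 9 of the 10 genes and 12884 of all genes passed. BNIP3 did not pass, and its values are given without a test.

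The study examined what the long noncoding RNA LINC00673 does in breast cancer cells. RNA was sequenced from cells labelled MDA-MB-453, an established human breast cancer cell line, in 3 groups of 3 libraries. X453_NC was the control group, and X453_1 and X453_2 were both labelled as Linc00673 knockdown, their numbers matching those of the study's pair of LINC00673 siRNAs, although the labels do not spell out which siRNA each group received. Per the labels, cells were transfected with Lipofectamine 2000 and harvested 48 h later, and no group was labelled as hypoxic. The labels do not say whether the 3 libraries of a group came from separate cultures, so P values measure the spread between these libraries, which may be technical. All results are from 1 cell line.

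Each library held an estimated 23000000 to 27600000 mapped fragments, worked out from the smallest steps of the FPKM values. Across all genes, log2 values correlated at 0.9960 to 0.9970 between libraries of 1 group and at 0.9762 to 0.9937 between libraries of different groups. MDA-MB-453 is known as a luminal line, and the libraries were compared with its markers. KRT8, a luminal keratin, stood at 3011 to 3773 FPKM and EPCAM, an epithelial surface protein, at 287 to 330 FPKM. The other keratins KRT18 and KRT19 stood at no less than 1679.95 and 1043.54 FPKM, and the receptor genes FGFR4 and ERBB2 lay at 17.9 to 33.1 and 11.8 to 17.8 FPKM. However, the luminal factor FOXA1 did not exceed 0.04 FPKM in any library, and GATA3, another luminal factor, lay between 0.41 and 0.88 FPKM. These luminal factors, which the line is known to express, were therefore at or near 0 in all 9 libraries, while the other 6 markers given here were present. The summed level of 8 line markers was 7235 to 7872 FPKM in X453_NC, 6097 to 6733 FPKM in X453_1 and 6235 to 6893 FPKM in X453_2. Most of it came from KRT8, KRT18 and KRT19, with means of 3617, 2433 and 1180 FPKM in X453_NC. The 8 markers of leukocytes, endothelium and fibroblasts summed to 11.2 to 12.1, 14.8 to 15.5 and 14.9 to 16.3 FPKM, with PTPRC at no more than 0.07 FPKM, CDH5 at no more than 0.03 FPKM and DCN at no more than 0.04 FPKM. LYZ, at 6.66 to 8.74 FPKM, and COL1A1, at 3.49 to 7.08 FPKM, made up most of these sums. The sums of both lists moved with the knockdown groups, and their part in the results below was not tested. In such bulk libraries, fewer cells of a kind and less RNA per cell cannot be told apart.

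The response to low oxygen runs through the hypoxia-inducible factors, dimers of an oxygen-regulated alpha subunit and a stable partner. When oxygen is plentiful, prolyl hydroxylases mark the alpha subunit, the von Hippel-Lindau protein binds the mark, and the subunit is degraded, so the main control of HIF1A lies on its protein and not on its transcript. When oxygen is scarce the factor accumulates and binds DNA at hypoxia response elements, whose core is ACGTG or GCGTG. Its targets supply glucose carriers and glycolytic enzymes, hold pyruvate back from the mitochondria, manage acid, recruit vessels and remove mitochondria. In breast tumours many of these transcripts are raised in poorly supplied regions.

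The stretches just upstream of the genes hold this core unevenly, and the promoters of 4 of the genes are shown because they span the responses described below, from the gene with the largest change to one with hardly any transcript. Each is the 250 bases before the RefSeq transcription start on GRCh38.p14, written 5′ to 3′ on the strand of the gene, with capitals marking ACGTG or GCGTG on either strand (CACGT and CACGC are the same letters read from the other strand). ADM lies at chr11:10304823-10305072 on the plus strand, ANKRD37 at chr4:185396591-185396840 on the plus strand, CA9 at chr9:35673678-35673927 on the plus strand and BNIP3 at chr10:131981924-131982173 on the minus strand.
ADM: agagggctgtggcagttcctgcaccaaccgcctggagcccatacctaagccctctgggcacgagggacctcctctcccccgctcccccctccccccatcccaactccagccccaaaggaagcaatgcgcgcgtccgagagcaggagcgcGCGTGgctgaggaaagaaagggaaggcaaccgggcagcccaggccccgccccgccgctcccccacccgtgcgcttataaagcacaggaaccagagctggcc
ANKRD37: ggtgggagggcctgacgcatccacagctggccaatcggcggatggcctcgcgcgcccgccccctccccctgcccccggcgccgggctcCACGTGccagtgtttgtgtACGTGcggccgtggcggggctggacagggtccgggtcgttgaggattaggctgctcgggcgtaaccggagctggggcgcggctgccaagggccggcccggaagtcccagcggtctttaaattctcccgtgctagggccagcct
CA9: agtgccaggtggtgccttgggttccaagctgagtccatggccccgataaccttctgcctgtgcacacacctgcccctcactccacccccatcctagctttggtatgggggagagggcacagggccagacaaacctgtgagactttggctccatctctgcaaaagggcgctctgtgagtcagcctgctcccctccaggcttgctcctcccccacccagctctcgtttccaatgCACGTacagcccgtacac
BNIP3: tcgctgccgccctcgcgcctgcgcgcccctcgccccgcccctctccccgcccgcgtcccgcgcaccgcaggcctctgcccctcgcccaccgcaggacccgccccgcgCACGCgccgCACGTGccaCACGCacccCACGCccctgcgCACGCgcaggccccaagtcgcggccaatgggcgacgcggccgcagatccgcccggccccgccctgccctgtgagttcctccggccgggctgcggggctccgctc
ADM held 1 match, whose first base lay 101 bases before the start. ANKRD37 held 3, of which a pair overlapped in CACGTG, a run that reads the same on both strands and so counts on each. CA9 held 1 match, close to the start, and BNIP3 held 6, an overlapping pair included. RefSeq promoters were used for 8 of the 10 genes. VEGFA and NDRG1 were left out of this search, so it says nothing of whether their promoters hold the core. Of the 10 promoters listed for these 8 genes, 6 held at least 1 match. Among all 35116 promoters of the same length, 43.2% held one, so the letters alone are common. EGLN3 and SLC2A1 had no match in this window, which says nothing of sites elsewhere.

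The 10 genes covered a wide range of expression in the control cells (X453_NC). SLC2A1 was highest with a mean of 422 FPKM, above 99.2% of the 18999 genes with a value above 0. CA9 followed with 219 FPKM, NDRG1 with 99.8 FPKM, ANKRD37 with 90.7 FPKM and VEGFA with 47.1 FPKM. EGLN3 and HIF1A had means of 30.3 and 28.9 FPKM, and their libraries overlapped. PDK1 stood at 21.7 FPKM, ADM at 5.24 FPKM and BNIP3 at 0.137 FPKM. The order changed with knockdown: in X453_1 NDRG1 stood above CA9, with means of 228 and 210 FPKM. The same held in X453_2, with means of 349 and 261 FPKM. In X453_2 ADM, with 37.4 FPKM, also overlapped EGLN3 with 36.7 FPKM.

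A subset of these genes was higher in the knockdown groups. A gene was called when, as in the criteria of the study, its fold change reached 1.3 and its unadjusted P did not exceed 0.05. The test here was limma on log2(FPKM + 1). Fold changes below are on that scale, on which weakly expressed genes show too small a change. In X453_1, 3 of the 9 tested genes rose (HIF1A, ADM and NDRG1) and 0 fell, against 11.1% of all tested genes called higher and 15.6% called lower. In X453_2, 4 of 9 rose (ADM, PDK1, NDRG1 and ANKRD37) and 0 fell, against 11% called higher and 23.1% called lower. ADM and NDRG1 rose in both groups. The median log2 difference of the 9 genes was 0.11 in X453_1 and 0.33 in X453_2, beside 0.0032 and -0.095 over all tested genes. Both comparisons use the same 3 control libraries.

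**Figure D1:**
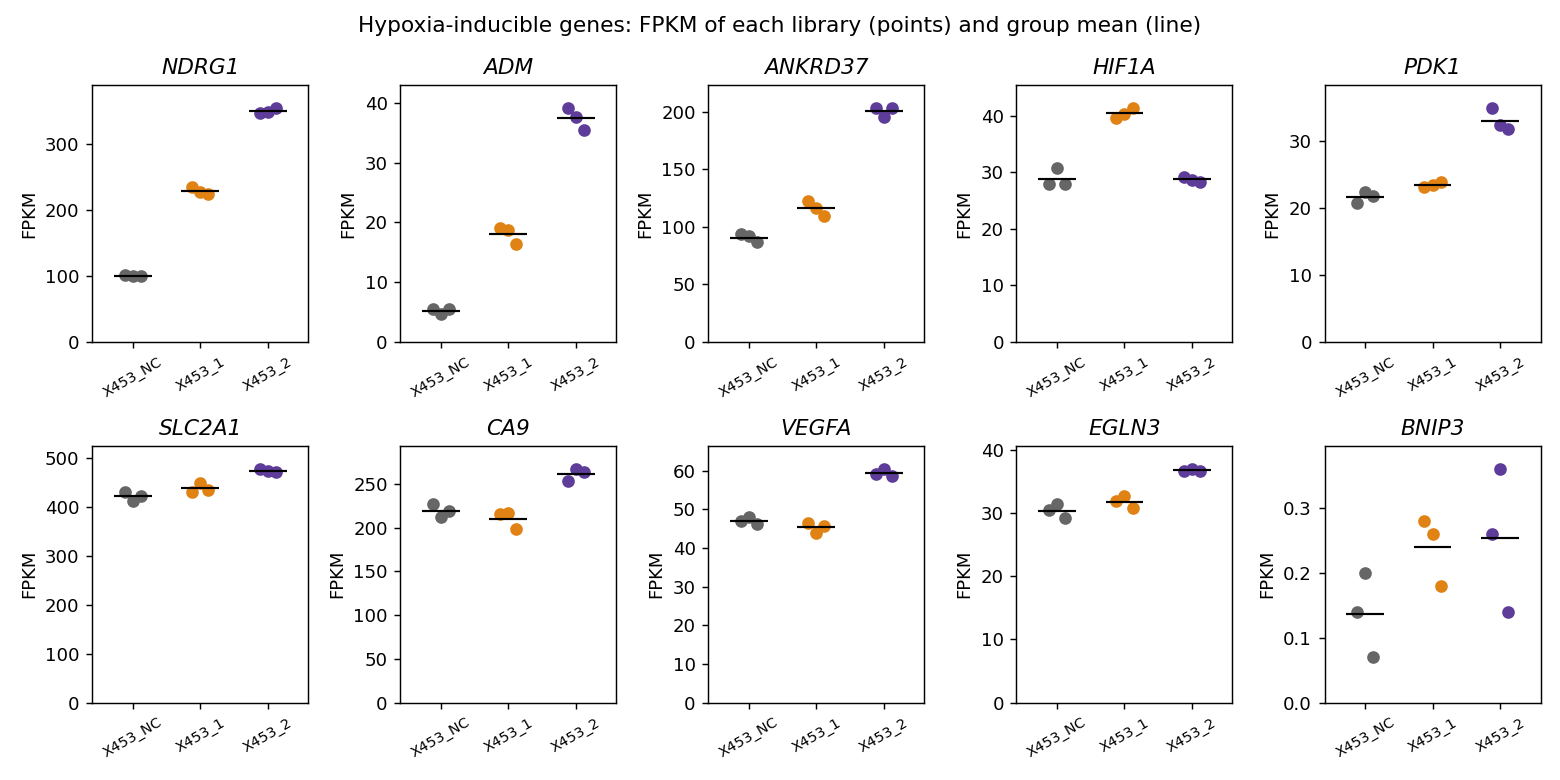
FPKM (vertical axes, each starting at 0) of the 10 hypoxia-inducible genes in the 3 libraries of X453_NC, X453_1 and X453_2, with points for libraries and lines for group means. NDRG1, ADM and ANKRD37 step up from X453_NC to X453_1 to X453_2 with no overlap, HIF1A is high in X453_1 alone, and BNIP3 stays at or below 0.36 FPKM.

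Without the fold limit, at an unadjusted P of 0.05 or less, 5 of the 9 genes were higher in X453_1, 8 in X453_2 and 8 in X453_2 against X453_1, beside 33.8%, 26.9% and 12.7% of all tested genes. Without regard to a test, the 3 knockdown libraries lay wholly above the 3 control libraries for 5 of the 10 genes in X453_1 and for 8 of the 10 in X453_2, and wholly below them for 0 genes in either. Over all tested genes the libraries lay wholly above the controls for 35% of genes in X453_1 and 26.9% in X453_2, and wholly below for 35.1% and 46.1%. An exact permutation test on 3 against 3 libraries cannot give a P below 0.1, so this separation is a description.

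The regulators come first. HIF1A, on chromosome 14 from 62162119 to 62214977 (GRCh37.p13, plus strand, gene 3091), encodes the oxygen-regulated alpha subunit. Its control libraries gave 27.98, 30.72 and 27.87 FPKM, the X453_1 libraries 39.72, 40.37 and 41.36 FPKM, and the X453_2 libraries 29.28, 28.75 and 28.33 FPKM. X453_1 lay wholly above both other groups, which overlapped. The log2 difference from control was 0.48 in X453_1 (95% interval 0.39 to 0.57, limma, adjusted P = 5.45e-06), a fold of 1.39, and -0.0021 in X453_2 (-0.093 to 0.089, adjusted P = 0.967). The difference between X453_2 and X453_1 was itself called, at -0.48 (limma, adjusted P = 3.38e-05), but under median ratio scaling (-0.38) or GC correction (-0.34) it fell short of the 1.3-fold limit.

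EGLN3, on chromosome 14 from 34393421 to 34420284 (minus strand, gene 112399), encodes a prolyl hydroxylase that marks the alpha subunits and is itself a hypoxia target. Its libraries gave 30.45, 31.36 and 29.23 FPKM in X453_NC, 31.99, 32.67 and 30.82 FPKM in X453_1, and 36.63, 36.97 and 36.62 FPKM in X453_2. X453_2 lay above both other groups, and X453_1 overlapped the controls. It differed from control by 0.067 on the log2 scale in X453_1 (limma, adjusted P = 0.119) and 0.27 in X453_2 (0.19 to 0.35, adjusted P = 7.02e-05), a fold of 1.204 that lies under the limit of 1.3.

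Of 16 further parts of the oxygen-sensing machinery, 15 were tested: 2 rose and 2 fell in X453_1, beside 11.1% and 15.6% of all tested genes, and 4 rose and 3 fell in X453_2, beside 11% and 23.1%. Apart from the rises in X453_2, these counts lie near the shares over all genes. The median log2 differences were 0.089 and 0.027, beside 0.0032 and -0.095 over all tested genes. EPAS1, which encodes the alternative alpha subunit HIF-2 alpha, rose from a low 0.653 FPKM to 2.36 FPKM in X453_1 and 2.80 FPKM in X453_2 (log2 differences 1.02 and 1.201, limma, adjusted P = 3.43e-07 and 6.47e-08). EGLN2, another prolyl hydroxylase, fell from 13.9 FPKM to 7.17 and 6.79 FPKM (log2 differences -0.87 and -0.94, limma, adjusted P = 6.74e-05 and 2.85e-05). EGLN1, the main prolyl hydroxylase in most cells, gave log2 differences of -0.038 and 0.11, neither called. ARNT2, a relative of the stable partner, fell in both groups (-0.43 and -0.62), and RBX1, a ring protein of the ubiquitin ligase, rose in both (0.40 and 0.61). In X453_1 the call of RBX1 was lost without X453_NC replicate r1 (0.36) or without X453_1 replicate r2 (0.36), which left 1 component called higher. Under GC correction the RBX1 call was lost as well (0.33), but ELOB, another component, was then called higher (0.45). VHL, the recognition subunit of that ligase, was called lower in X453_2 (-0.44) with -0.17 in X453_1, and SIAH2, a ubiquitin ligase of the prolyl hydroxylases, was called higher in X453_2 (0.55) with 0.088 in X453_1. In the direct comparison of the knockdown groups SIAH2 was called and VHL was not, and under median ratio scaling VHL was not called in X453_2 (-0.34). ARNT, the stable partner itself, gave 0.15 and 0.10, neither called.

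Among secreted signals, ADM showed the largest change of the 10 genes in both groups. ADM, on chromosome 11 from 10326527 to 10328949 (plus strand, gene 133), encodes adrenomedullin, a vasodilator peptide. Its libraries gave 5.54, 4.69 and 5.50 FPKM in X453_NC, 19.05, 18.70 and 16.41 FPKM in X453_1, and 39.08, 37.64 and 35.48 FPKM in X453_2. The 3 groups did not overlap, with X453_2 highest. The log2 difference was 1.61 in X453_1 (1.45 to 1.77, limma, adjusted P = 8.66e-08) and 2.62 in X453_2 (2.47 to 2.78, adjusted P = 2.03e-09), and the plain ratios of mean FPKM were 3.44 and 7.13. X453_2 exceeded X453_1 by 1.01 on the log2 scale (limma, adjusted P = 1.1e-05).

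VEGFA, on chromosome 6 from 43737946 to 43754224 (plus strand, gene 7422), encodes the main growth factor for blood vessels. Its libraries gave 47.01, 48.09 and 46.08 FPKM in X453_NC, 46.59, 43.77 and 45.72 FPKM in X453_1, and 59.04, 60.42 and 58.64 FPKM in X453_2. X453_1 overlapped the controls and X453_2 lay above both. On the log2 scale the difference was -0.052 in X453_1 (limma, adjusted P = 0.182) and 0.33 in X453_2 (0.26 to 0.40, adjusted P = 1.01e-05), a fold of 1.26 that lies under the limit but passes it under median ratio scaling (0.43) and GC correction (0.45).

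The relatives and receptors of these signals did not move as a block. ADM2, which encodes the related peptide intermedin, fell from 7.39 FPKM to 2.38 and 1.37 FPKM (log2 differences -1.31 and -1.82, limma, adjusted P = 7.58e-08 and 4.72e-09), so that the pair of adrenomedullin genes moved in opposite directions. VEGFB fell in both groups (-0.58 and -0.57), calls that were lost under GC correction (-0.065 and -0.062), and PGF, placental growth factor, rose in both (0.60 and 0.47) at a low level of 1.41 FPKM in the controls. Of 6 receptor genes with values, 3 were tested: the VEGF co-receptors NRP1 (0.71 and 0.76) and NRP2 (0.71 and 0.54) rose in both groups, and RAMP1, a partner of calcitonin-type receptors, gave -0.19 and 0.19, neither called, but was called in X453_2 under GC correction (0.70). FLT1 and KDR, the signalling receptors of VEGFA, did not exceed 0.04 FPKM in any library.

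The genes of glucose use responded in different degrees. SLC2A1, on chromosome 1 from 43391046 to 43424847 (minus strand, gene 6513), encodes the glucose carrier GLUT1. Its libraries gave 431.33, 411.02 and 422.69 FPKM in X453_NC, 431.29, 448.69 and 435.24 FPKM in X453_1, and 477.23, 473.43 and 471.39 FPKM in X453_2. X453_1 overlapped the controls, and X453_2 lay above both groups by a small margin. On the log2 scale it differed by 0.056 in X453_1 (limma, adjusted P = 0.0866) and 0.17 in X453_2 (0.11 to 0.23, adjusted P = 2.48e-04), a fold of 1.12 under the limit.

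PDK1, on chromosome 2 from 173420697 to 173463862 (plus strand, gene 5163), encodes pyruvate dehydrogenase kinase 1, which keeps pyruvate out of the mitochondrial cycle. Its libraries gave 20.77, 22.44 and 21.75 FPKM in X453_NC, 23.10, 23.45 and 23.86 FPKM in X453_1, and 34.90, 32.44 and 31.79 FPKM in X453_2. The groups did not overlap, although the step from X453_NC to X453_1 was small. Relative to control, the log2 difference was 0.11 in X453_1 (0.017 to 0.21, limma, adjusted P = 0.0409), under the fold limit, and 0.59 in X453_2 (0.49 to 0.68, adjusted P = 1.26e-06), a fold of 1.502. The other kinases of the family differed from each other. PDK3, like PDK1, was called higher in X453_2 (0.48) and not in X453_1 (0.36), although without X453_NC replicate r1 (0.39) or X453_1 replicate r1 (0.38) it passed in X453_1 as well. PDK2 fell in both groups (-0.59 and -0.85), and PDK4 was called in neither (0.20 and 0.28).

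CA9 and BNIP3 stand for acid handling and mitochondrial removal. CA9, on chromosome 9 from 35673915 to 35681156 (plus strand, gene 768), encodes carbonic anhydrase IX of the cell surface. Its libraries gave 226.92, 211.75 and 218.53 FPKM in X453_NC, 215.00, 216.49 and 198.97 FPKM in X453_1, and 253.41, 266.93 and 263.45 FPKM in X453_2. X453_1 overlapped the controls and X453_2 lay above them. The log2 difference was -0.060 in X453_1 (limma, adjusted P = 0.212) and 0.25 in X453_2 (0.16 to 0.34, adjusted P = 2.63e-04), a fold of 1.19 under the limit. In X453_1 the direction was opposite after a GC correction (0.14), and in X453_2 the value was then 0.51. CA12, a second tumour-associated carbonic anhydrase, rose in both groups from 1.24 FPKM to 4.79 and 4.57 FPKM (log2 differences 1.37 and 1.32, limma, adjusted P = 2.89e-08 and 1.65e-08).

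BNIP3, on chromosome 10 from 133781187 to 133795517 (minus strand, gene 664), encodes a mitochondrial outer membrane protein that promotes mitophagy. Its libraries gave 0.14, 0.20 and 0.07 FPKM in X453_NC, 0.28, 0.26 and 0.18 FPKM in X453_1, and 0.26, 0.36 and 0.14 FPKM in X453_2, an estimated 3 to 14 fragments each. The groups overlapped, and a difference of this size was not detectable at this depth. Its close relative BNIP3L was well expressed, with means of 45.7, 55.1 and 66.8 FPKM, and was called higher in X453_2 (log2 difference 0.54, limma, adjusted P = 1.05e-06) with 0.27 in X453_1, and with no call between the groups but one under GC correction (0.41).

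After ADM, NDRG1 and ANKRD37 had the largest rises of the 10 genes in X453_2. NDRG1, on chromosome 8 from 134249414 to 134309547 (minus strand, gene 10397), encodes a stress-responsive cytoplasmic protein known as a hypoxia marker in tumours. Its libraries gave 100.56, 99.04 and 99.75 FPKM in X453_NC, 234.57, 226.96 and 223.55 FPKM in X453_1, and 347.08, 347.39 and 353.52 FPKM in X453_2. The 3 groups were far apart relative to the spread within each. On the log2 scale NDRG1 rose by 1.19 in X453_1 (1.13 to 1.24, limma, adjusted P = 2.9e-09) and 1.80 in X453_2 (1.74 to 1.85, adjusted P = 7.1e-11), folds of 2.28 and 3.48, and X453_2 exceeded X453_1 by 0.61 (adjusted P = 6.05e-07). Of the other NDRG genes, NDRG4 rose in both groups from a low 3.003 FPKM (0.67 and 0.67), and NDRG2 and NDRG3 were called in neither.

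ANKRD37, on chromosome 4 from 186316915 to 186321399 (plus strand, gene 353322), encodes a small ankyrin repeat protein and is a known HIF target. Its libraries gave 93.37, 91.69 and 87.04 FPKM in X453_NC, 122.64, 116.74 and 109.08 FPKM in X453_1, and 203.01, 195.85 and 202.94 FPKM in X453_2. The groups did not overlap. The log2 difference was 0.35 in X453_1 (0.25 to 0.45, limma, adjusted P = 6.77e-05), a fold of 1.28 just under the limit, and 1.14 in X453_2 (1.04 to 1.24, adjusted P = 2.17e-08), a fold of 2.20. Without X453_1 replicate r2 the X453_1 value was 0.40 and passed the limit. The gene shares 706 bases with UFSP2 on the opposite strand, and whether fragments were counted by strand was not given in the sources used here, so shared fragments cannot be told apart. UFSP2 gave 15.09, 14.80 and 15.40 FPKM in X453_NC, 16.24, 15.02 and 16.13 FPKM in X453_1, and 26.45, 23.32 and 22.58 FPKM in X453_2, and was called higher in X453_2 (log2 difference 0.64, limma, adjusted P = 4.81e-06).

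**Figure D2:**
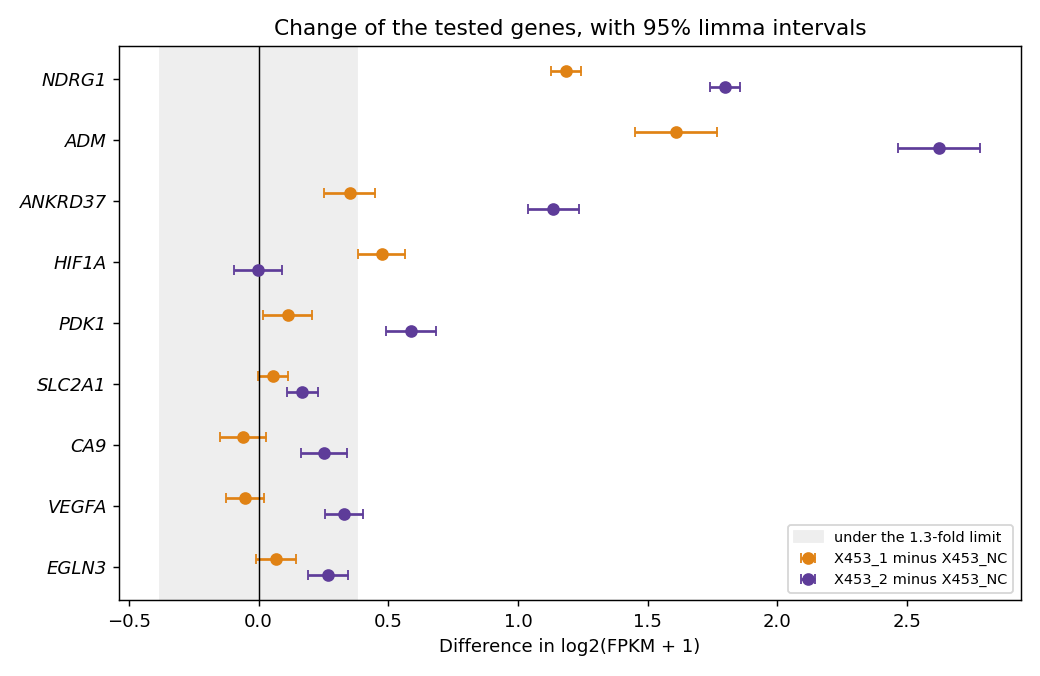
Difference in log2(FPKM + 1) from X453_NC (horizontal axis) for the 9 tested genes in X453_1 and X453_2, with points for limma estimates, bars for 95% intervals and grey for changes under the 1.3-fold limit. NDRG1 and ADM lie beyond the limit in both groups, ANKRD37 and PDK1 lie beyond it in X453_2, and HIF1A lies beyond it in X453_1.

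The knockdown groups differed from each other for most of the 10 genes. In a direct comparison of X453_2 with X453_1, 5 of the 9 tested genes were called higher (VEGFA, ADM, PDK1, NDRG1 and ANKRD37) and 1, HIF1A, was called lower, against 2.19% of all tested genes called higher and 5.45% called lower. The libraries of X453_2 lay wholly above those of X453_1 for 8 of the 10 genes. The share of all genes with such a separation was not worked out here, so this count is a description only. The differences in log2 were 0.78 for ANKRD37 (limma, adjusted P = 3.45e-06), 0.48 for PDK1 (adjusted P = 4.4e-05) and 0.38 for VEGFA (adjusted P = 3.38e-05). CA9 (0.31), EGLN3 (0.20) and SLC2A1 (0.11) were under the fold limit, with adjusted P of 3.09e-04, 0.00153 and 0.00707 from limma. Without X453_1 replicate r1 the VEGFA value was 0.36, and without X453_2 replicate r1 it was 0.37, both under the limit.

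Scaling bears on these comparisons, because most genes called in X453_2 fell. Relative to control, 1411 genes were higher and 2974 lower in X453_2, so that 67.8% of the called genes were lower. After scaling by the median ratio this share was 53.7%, and after a GC correction, which could be made for 11190 genes, it was 48.7%. For X453_1 the shares were 58.3%, 58.5% and 50.1%, and for X453_2 against X453_1 they were 71.3%, 39% and 42.7%. The median over all genes in X453_2 moved from -0.095 to -0.0071 under median ratio scaling. ADM and NDRG1 rose in both groups, and ANKRD37 and PDK1 rose in X453_2, under both of these alternatives.

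The wider set of genes known to be induced by hypoxia was examined with a list of 44 further genes, of which 43 had values and 37 were tested. In X453_1, 15 rose and 1 fell, beside 11.1% and 15.6% of all tested genes, and in X453_2, 27 rose and 2 fell, beside 11% and 23.1%. Without X453_NC replicate r1 or without X453_1 replicate 1, 2 fell in X453_1. Under GC correction the X453_1 calls of CITED2 (0.348), HIGD1A (0.378) and P4HA2 (0.366) were lost. The call of CITED2 was also lost without X453_1 replicate r1 (0.357), and that of P4HA2 without X453_NC replicate 1 (0.365). In the other direction, MXI1 passed in X453_1 without X453_NC replicate r2 (0.385), and VLDLR without X453_1 replicate 1 (0.386). The 15 that rose in X453_1 were called higher in X453_2 as well, and 12 more passed the criteria in X453_2 and not in X453_1. Directly compared, 11 of the 37 were called higher in X453_2 than in X453_1 and 0 lower, beside 2.19% and 5.45% of all tested genes. Under median ratio scaling 20 were called higher, beside 512 of 12884 genes, and under GC correction 19, beside 327 of 11190 genes. The median log2 difference of the list was 0.30 in X453_1 and 0.62 in X453_2, beside 0.0032 and -0.095 over all tested genes. The list was compiled with earlier results of these data known.

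The most changed genes of the list serve unlike ends. TFRC, the transferrin receptor that imports iron, rose from 34.8 FPKM to 119 and 141 FPKM (log2 differences 1.75 and 1.99, limma, adjusted P = 2.9e-09 and 3.75e-10). ANGPTL4, a secreted inhibitor of lipoprotein lipase, rose from 3.15 FPKM to 9.64 and 17.9 FPKM (1.36 and 2.18, limma, adjusted P = 1.13e-07 and 3.02e-09). HILPDA, a lipid droplet protein, rose from 19.7 FPKM to 40.8 and 75.2 FPKM (1.01 and 1.88, limma, adjusted P = 6.81e-08 and 6.85e-10). For both of these lipid genes and for CXCR4, a chemokine receptor that rose from 0.610 FPKM to 1.49 and 4.78 FPKM, X453_2 was also called higher than X453_1. STC2, a secreted glycoprotein, was the 1 gene of the list that fell in both groups (-0.88 and -0.97), and WSB1 fell in X453_2 (-0.45, but not under median ratio scaling, -0.35) with -0.33 in X453_1 and no call between the groups. Under GC correction WSB1 also passed in X453_1 (-0.40). DDIT4, an inhibitor of mTORC1 signalling, gave -0.34 in X453_1, under the limit with all libraries but past it without X453_NC replicate r1 (-0.38) or X453_1 replicate 1 (-0.40), and rose by 0.65 in X453_2.

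Of 19 glycolytic hypoxia targets, all tested, 11 rose and 2 fell in X453_1, beside 11.1% and 15.6% of all tested genes, and 14 rose and 2 fell in X453_2, beside 11% and 23.1%. The median log2 differences were 0.41 and 0.82, beside 0.0032 and -0.095 over all tested genes. This list, too, was compiled with earlier results of these data known. The estimate was higher in X453_2 than in X453_1 for 18 of the 19 genes, while the median difference over all tested genes was -0.081. The share of all tested genes with a higher estimate in X453_2 was not worked out here. Of the differences of the 19 genes 5 were called, beside 2.19% of all tested genes called higher. Under median ratio scaling 11 were called, beside 512 of 12884 genes, and under GC correction 9, beside 327 of 11190 genes. PFKFB3, which makes the allosteric activator of phosphofructokinase, rose from 18.0 FPKM to 42.9 and 75.8 FPKM (1.21 and 2.02, limma, adjusted P = 5.01e-08 and 8.49e-10). SLC2A3, the glucose carrier GLUT3, rose from 99.5 FPKM to 226 and 289 FPKM (1.18 and 1.53, limma, adjusted P = 2.18e-08 and 1.56e-09), a contrast to SLC2A1, which was not called in either group. ALDOA, an aldolase, rose from 1056 FPKM to 1632 and 2256 FPKM (0.63 and 1.096). In the opposite direction, SLC16A3, the lactate exporter MCT4, fell from 148 FPKM to 71.6 and 82.7 FPKM (-1.04 and -0.84, limma, adjusted P = 1.44e-05 and 4.66e-05), and PFKL, the liver-type phosphofructokinase, fell in both groups (-0.59 and -0.45). The call of PFKL was lost under GC correction in X453_1 (-0.21) and under median ratio scaling (-0.34) and GC correction (-0.035) in X453_2, which left 1 gene of the list called lower. Several glycolytic genes have processed pseudogene copies, and how fragments were shared between copies was not given in the sources used here.

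**Figure D3:**
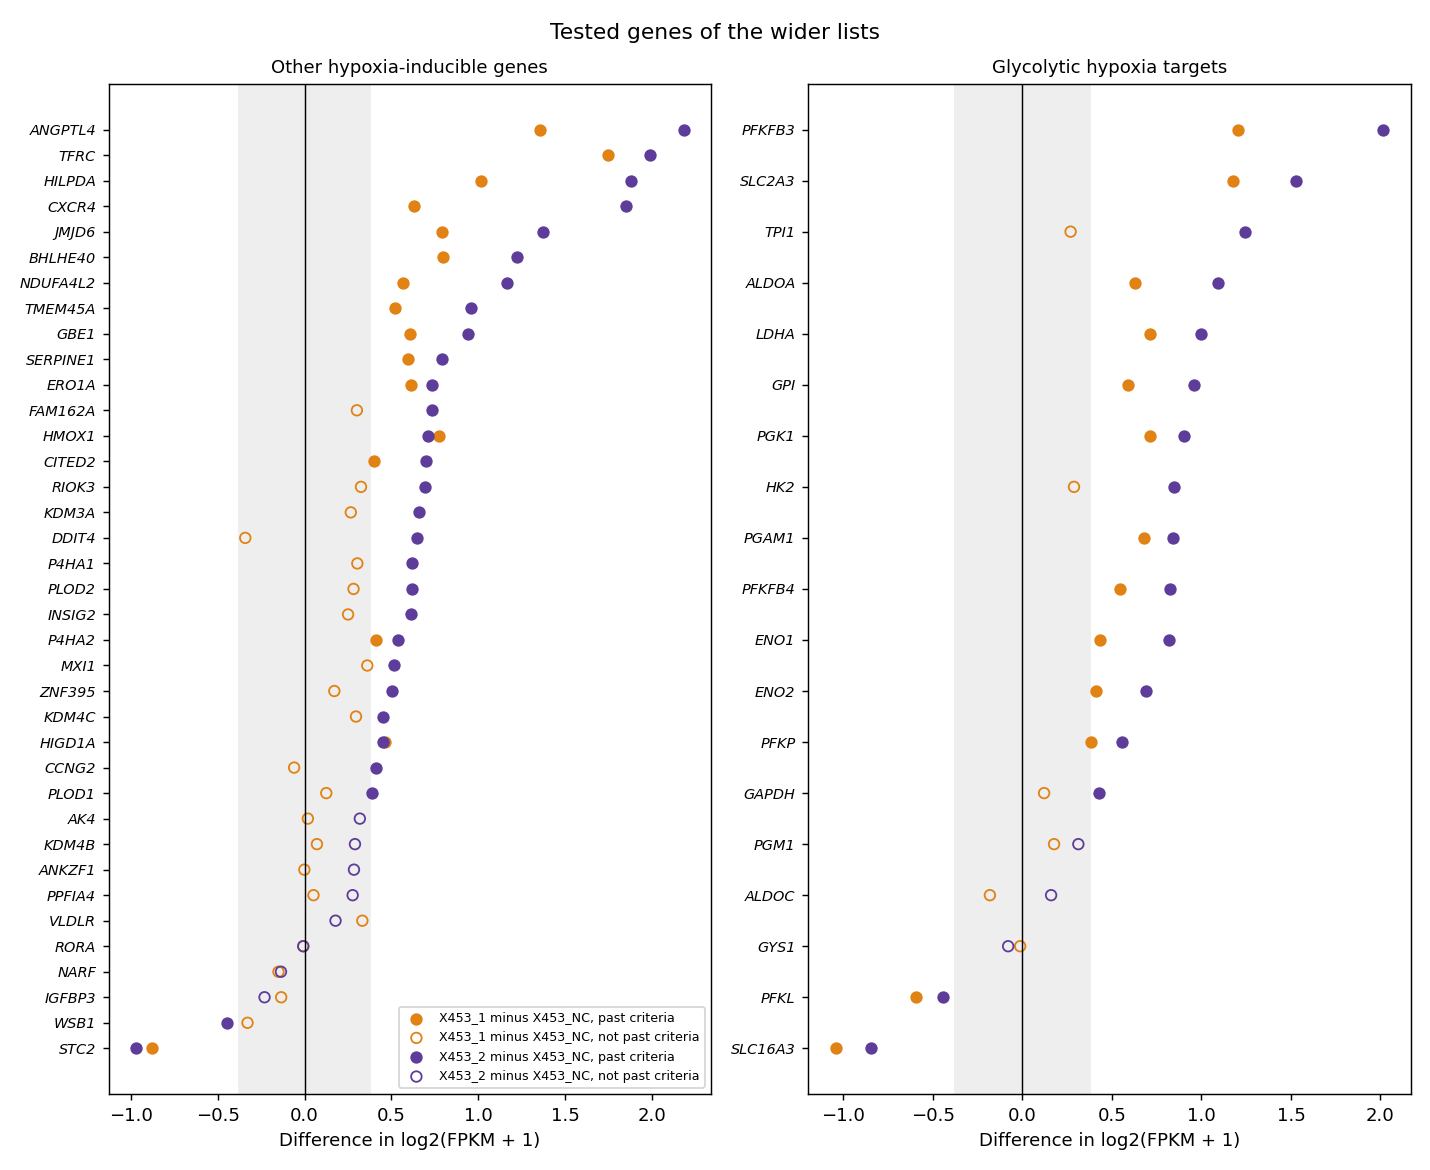
Difference in log2(FPKM + 1) from X453_NC (horizontal axes) for the tested genes of the list of other hypoxia-inducible genes (left, 37 genes) and of glycolytic hypoxia targets (right, 19 genes), with filled points past the criteria and open points not. Most points lie right of 0, those of X453_2 mostly farther than those of X453_1, while STC2, PFKL and SLC16A3 are past the criteria left of 0 in both groups (PFKL not under GC correction) and WSB1, NARF, IGFBP3, RORA and GYS1 also lie left of 0 in both.

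Of 13 tested relatives of the 10 genes, 3 rose and 3 fell in X453_1, beside 11.1% and 15.6% of all tested genes, and 5 rose and 4 fell in X453_2, beside 11% and 23.1%. The falls are not far from the shares over all genes. ADM rose while ADM2 fell, and PDK1 was called higher in X453_2 while PDK2 fell. CA12 was called higher in both groups and CA9 in neither. Among the glucose carriers, SLC2A3 was called higher in both groups, SLC2A1 and SLC2A8 (0.18 and 0.17) were called in neither, and SLC2A12 gave -0.018 in X453_1 and was called lower in X453_2 (-0.40). The SLC2A12 call was lost under median ratio scaling (-0.33), under GC correction (-0.35) and without X453_NC replicate r1 (-0.37). SLC2A8 was called higher in both groups under GC correction (0.50 and 0.52).

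**Figure D4:**
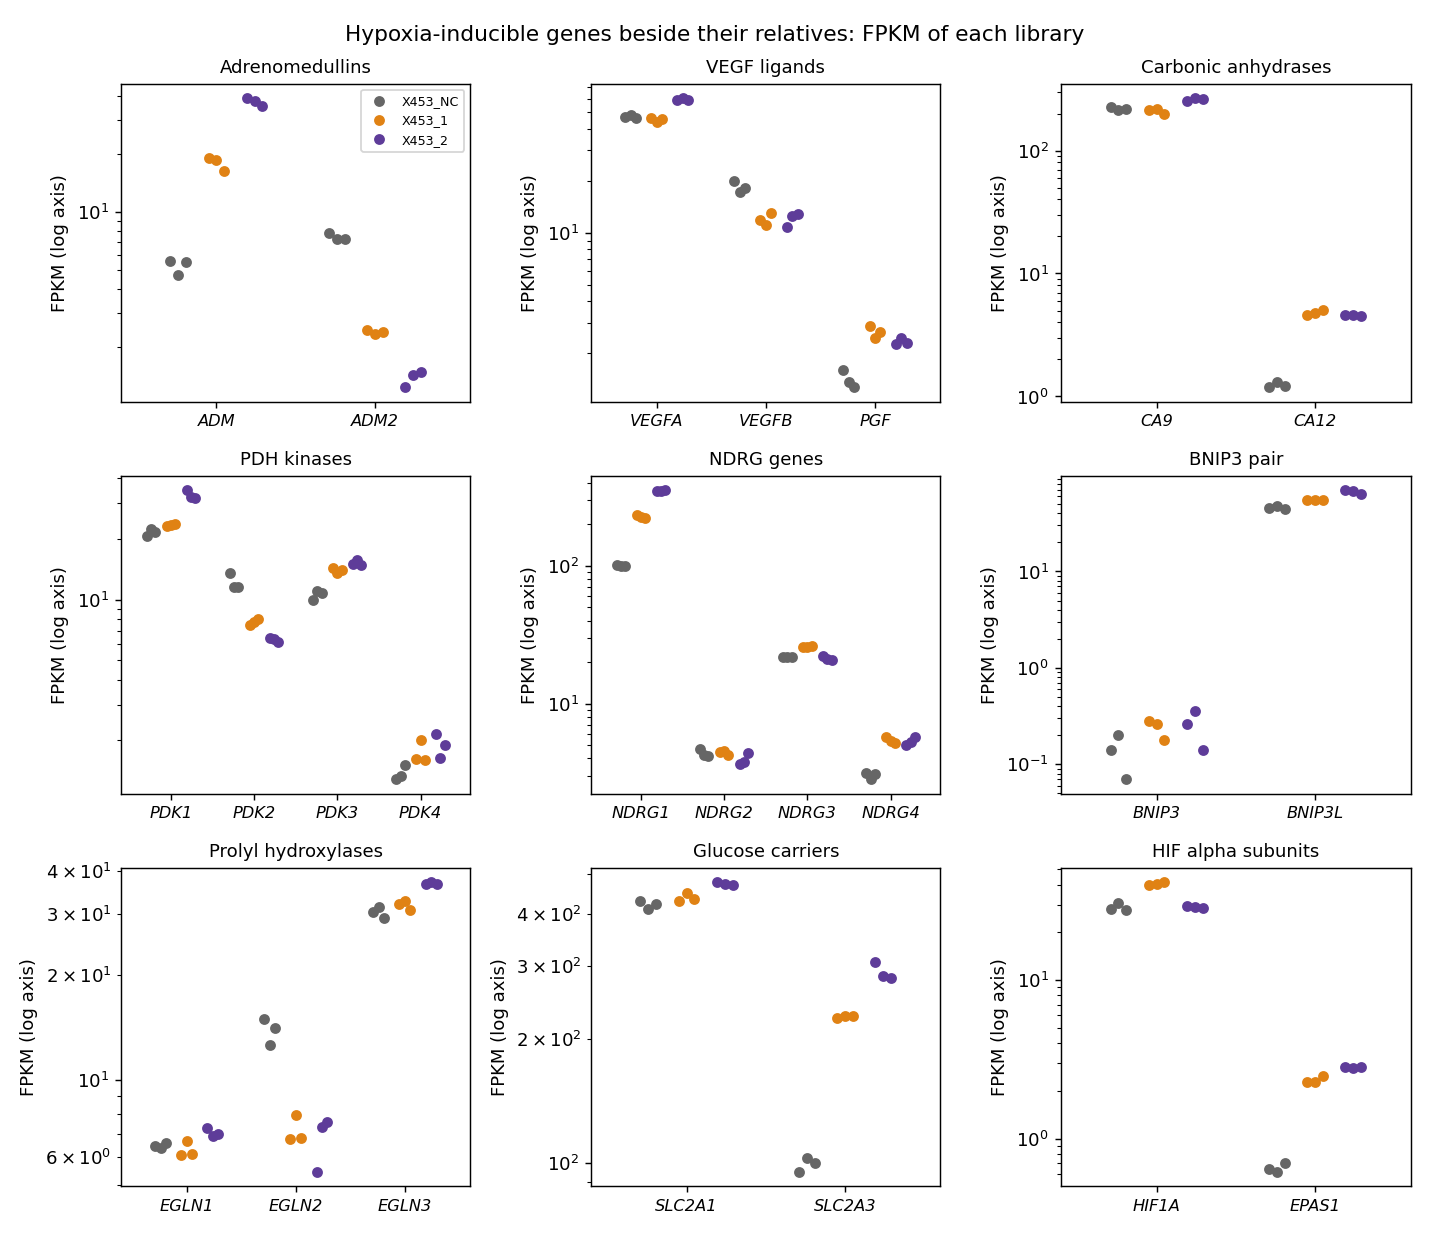
FPKM of each library (vertical log axes) for 9 families, each with 1 or more of the 10 hypoxia-inducible genes beside relatives, in X453_NC, X453_1 and X453_2. ADM and ADM2 move apart, CA12 and SLC2A3 step up beside nearly level CA9 and SLC2A1, and BNIP3L lies far above BNIP3.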

How the data were processed

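Total RNA from 9 libraries was sequenced on the BGISEQ-500 platform. The authors deposited 1 table with the FPKM of each library for 19930 genes, and 4 further lines without values were left out. The FPKM columns occur 2 times with equal values. Bowtie2 and GRCh37.p13 are named in the submitters' processing notes, and the gene counter and its use of strand were not given in the sources used here. Log2 ratios, P values and Q values that the authors computed between combined groups were not used. LINC00673 was not analysed here, so the extent of knockdown was not checked.

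log2(FPKM + 1) was fitted with limma 3.58.1 (lmFit, and eBayes with a trend) in R 4.3.3 over the 12884 genes averaging 1 FPKM or more, with all 9 libraries and the group as the only factor. Calls required a 1.3-fold change and an unadjusted P no higher than 0.05, and adjusted P values are Benjamini-Hochberg values over all genes tested. The script was tested on simulated data. Of the markers of the line, 1 is not reported here. The 10 genes and all lists were chosen with earlier results of these data known, and the lists were compiled from general knowledge. The genes named from each other list with more than 10 tested genes are the 4 with the largest mean change among those called in the same direction in both groups. Relatives, receptors and pathway components are also given beside the gene they relate to. TPI1 is plotted only. STC2, WSB1, DDIT4 and PFKL were named after their values were seen. Alternatives numbered 20, of which the GC correction (a lowess curve of span 0.3 against the GC content of each gene) was chosen after seeing the data. Tables and figures were made with matplotlib 3.10.9, numpy 2.4.6 and pandas 2.3.3 under Python 3.11.15, and promoters were read from RefSeq sequences of GRCh38.p14. Estimated fragment numbers cover counting error only.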

Additional observations from a re-analysis of the deposited data

Results flagged for a closer look

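The effect of knockdown differed between the X453_1 and X453_2 groups for 6 of the 9 tested genes, by the direct limma comparison of X453_2 with X453_1. Over all tested genes, 2.19% were called higher and 5.45% lower in this comparison. The log2 difference was 1.01 for ADM, 0.78 for ANKRD37, 0.61 for NDRG1, 0.48 for PDK1 and 0.38 for VEGFA, all higher in X453_2, and -0.48 for HIF1A, lower in X453_2. For each of the 6 genes the 3 libraries of a group lay apart from those of the other. Because the genes were picked by this same comparison, their separation is no further support. Which sample-level factors besides the labelled knockdown differ between the groups was not tested.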

How the results depend on the processing

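Of 20 alternatives, those that left out 1 library changed the count of genes called higher by at most 1, to 3 to 4 in X453_1, 4 to 4 in X453_2 and 4 to 5 for X453_2 against X453_1. Without a fold limit, 5 of the 9 genes were called higher in X453_1, 8 in X453_2 and 8 in X453_2 against X453_1 (33.8%, 26.9% and 12.7% of all tested genes). With a limit of 1.5, 3 were called higher in X453_2 against X453_1 and 0 lower, and HIF1A was no longer called lower there under median ratio scaling (0) or GC correction (0). The direction of 2 values near 0 turned: CA9 in X453_1 was 0.14 after GC correction, and HIF1A in X453_2 was 0.098 under median ratio scaling, 0.046 after GC correction and -0.026 to 0.042 when 1 library was left out. CA9 in X453_2 (0.51, GC correction) and in X453_2 against X453_1 (0.42, median ratio scaling) passed the fold limit. Libraries of different groups share only a replicate label (none, r1, r2): correlations of their deviations ran from -0.054 to 0.104, -0.239 to 0.027 and -0.159 to -0.034 in the 3 comparisons. With this label as a replicate block, 3 genes were called higher in X453_1, 4 in X453_2 and 5 in X453_2 against X453_1, as without it. The cause of these changes was not tested. FPKM rounded to 2 decimals and the estimated depth limit what can be said of BNIP3.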
